A study of Mus musculus with 2 samples.

Results

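Among the cells of an aged mouse bladder, 511 fibroblasts held transcripts of at least 3 of the 5 genes Gdf10, Myoc, Sult1e1, Penk and Cyp26b1. They were selected from 7140 stromal cells, out of 16334 deposited barcodes. Cells had at least 1000 unique molecular identifiers (UMIs, each standing for 1 captured transcript), at least 500 genes and under 15% mitochondrial UMIs. The stromal gate asked for at least 40 UMIs of Col1a1, Col1a2, Col3a1 and Dcn together per 10000 UMIs and for under 2 UMIs of Pecam1, Cdh5 and Epcam together. A barcode that stood in both libraries was used only where its copy was over 10 times deeper than the other. The selected cells are called Gdf10 Myoc Penk fibroblasts, or members, and the 6629 stromal-gate cells outside the selection serve for comparison. Because the levels of the 5 genes chose the members, those levels are given as a description.

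Tom+ and Tom- cells were sorted by flow cytometry as CD45-/DAPI- cells with and without tdTomato fluorescence and made into droplet-based 3′ single-cell RNA-seq libraries. Both came from the bladder of 1 male mouse of genotype p16-CreERT2/R26-LSL-tdTomato, aged 25 months, which had received tamoxifen by i.p. injection on 5 days in a row, with harvest 2 weeks after. In this allele pair the p16 (Cdkn2a) locus drives a Cre recombinase that tamoxifen activates, and the Cre removes a stop cassette in front of tdTomato, so that fluorescence reports recombination at the time of tamoxifen and not the p16 level at harvest. Tom+ and Tom- cells therefore share genotype, age, tamoxifen and animal, and no animal without Cre or without tamoxifen enters the comparisons. There is 1 library per group. No difference between Tom+ and Tom- has a replicate check, no test was made, and the 95% intervals below cover counting error only.

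GDF10, also called BMP3b, is a secreted ligand of the TGF-β superfamily, and proenkephalin, the product of Penk, is the precursor of the enkephalin opioid peptides. Myocilin, encoded by Myoc, is a secreted glycoprotein with an olfactomedin domain, SULT1E1 inactivates estrogens by sulfation, and CYP26B1 degrades retinoic acid. Fibroblasts of the bladder wall lie in the lamina propria, between the muscle bundles and in the adventitia, where they build the matrix of collagens and small leucine-rich proteoglycans.

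The Tom+ library held 2783 barcodes with 34455896 UMIs, and the Tom- library 13551 barcodes with 197232860 UMIs. The 87 Tom+ members had a median of 10301 UMIs and 3199 genes, and the 424 Tom- members a median of 14257 UMIs and 3909 genes. Mitochondrial UMIs had a median share of 2.89% in Tom+ members and 2.77% in Tom- members. The libraries shared 966 barcodes. Of the members, 7 Tom+ cells and 0 Tom- cells had a barcode that also stood in the other library. These 7 cells, with a median of 24556 UMIs, gave 18.4% of all UMIs of the Tom+ members, so a part of the values is also given without them. Scrublet called 10 of 1893 Tom+ cells (0.528%) and 690 of 10595 Tom- cells (6.51%) as doublets, and 0 Tom+ and 18 Tom- members were among them.

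All 5 selecting genes stood far above the other stromal-gate cells in both libraries, with levels given as CPM, the UMIs of a gene per 1000000 UMIs of the summed cells. Gdf10 (GRCm38, chr14:33923587-33937983, plus strand) had 452 CPM (412 to 496) in Tom+ members and 461 CPM (444 to 478) in Tom- members, against 20.4 CPM in other Tom+ and 14.1 CPM in other Tom- stromal-gate cells. Myoc (chr1:162639155-162649693, plus strand) had 877 CPM in Tom+ members and 488 CPM in Tom- members, against 39.9 and 47.7 CPM in the other Tom+ and Tom- cells. Sult1e1 (chr5:87575969-87591594, minus strand) had 282 CPM in Tom+ members and 487 CPM in Tom- members, against 10.7 and 6.36 CPM in the others. These 3 genes differ in how they split between the libraries: Gdf10 had like levels, Myoc was higher in Tom+ members and Sult1e1 was higher in Tom- members. Penk (chr4:4133531-4138819, minus strand) had 347 CPM in Tom+ members and 374 CPM in Tom- members, against 28.3 and 18.8 CPM in the others. Cyp26b1 (chr6:84571414-84593908, minus strand) had 165 CPM in Tom+ members and 92.2 CPM in Tom- members, against 12.9 and 11.01 CPM in the others.

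Penk and Gdf10 were the most widely detected of the 5 genes in Tom- members, and Penk and Myoc in Tom+ members. Penk had a UMI in 88.5% of Tom+ and 91.5% of Tom- members, and Gdf10 in 81.6% and 92.2%. Myoc was found in 83.9% of Tom+ members and 62.5% of Tom- members, Sult1e1 in 55.2% and 69.1%, and Cyp26b1 in 58.6% and 41.7%. Urothelial cells, which serve as a check on free RNA, held a UMI of these genes in 0.558% to 3.90% of Tom+ cells and in 2.71% to 5.65% of Tom- cells, although their median depth was 36391.5 and 38398 UMIs. With every cell thinned to 2000 UMIs, Myoc was found in 56.3% of Tom+ members and 34.7% of Tom- members, Cyp26b1 in 33.3% and 14.7%, and Sult1e1 in 36.8% and 42.9%, so the direction of these 3 splits was the same at equal depth. Penk was then in 43.7% of Tom+ members and 43.4% of Tom- members, and Gdf10 in 42.5% and 53.3%.

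**Figure D1:**
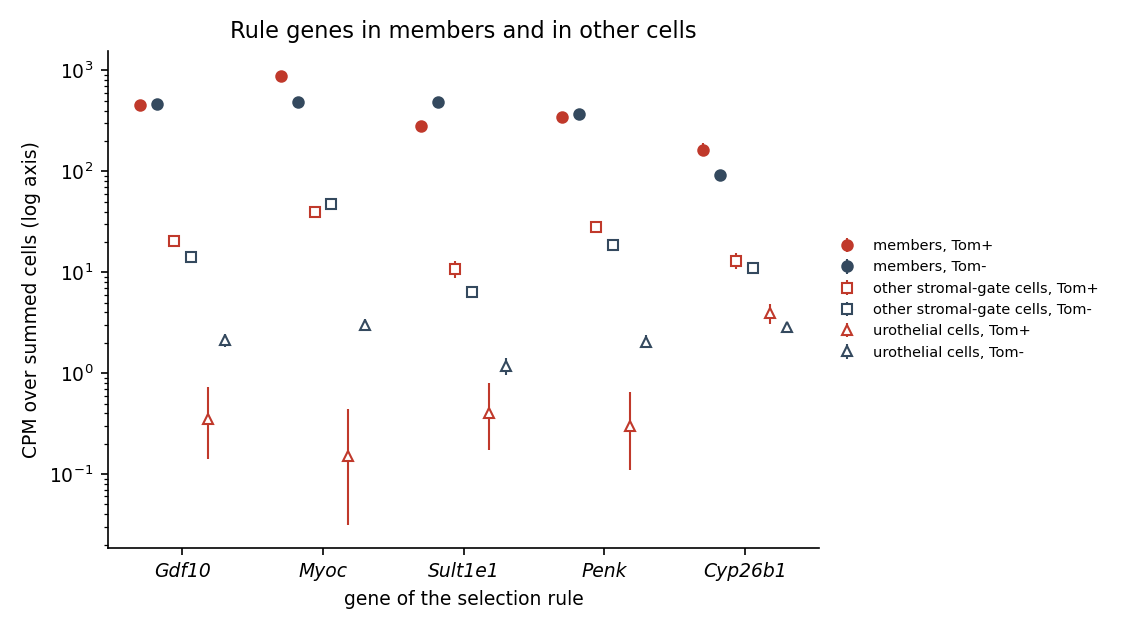
Levels of the 5 selecting genes (CPM over summed cells, log axis, bars are exact Poisson 95% intervals for counting error) in Gdf10 Myoc Penk fibroblasts (filled circles), in other stromal-gate cells (open squares) and in urothelial cells (open triangles) of the Tom+ (red) and Tom- (dark blue-grey) libraries. Members lie between 92.2 and 877 CPM, other stromal-gate cells between 6.36 and 47.7 CPM and urothelial cells below 4 CPM.

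Each gene also marked the cells that the other 4 selected. Cells chosen by at least 3 of the other 4 genes had 566 CPM of Gdf10 in Tom+ and 528 CPM in Tom-, against 32.5 and 28.4 CPM in the stromal-gate cells so left out, ratios of 17.4 and 18.6. The same ratio was 13.0 in Tom+ and 7.10 in Tom- for Myoc, 18.1 and 24.1 for Sult1e1, 10.6 and 13.2 for Penk, and 6.54 and 6.72 for Cyp26b1. Because the 5 genes defined the members, these ratios describe the selection. At the edge of the selection, cells with 3 of the genes held 1248 CPM of the 5 genes together in Tom+ and 1280.2 CPM in Tom-, and cells with 2 of them, just outside, held 717 CPM in Tom+ and 549.6 CPM in Tom-. In Tom+ 45 cells had 3 genes, 25 had 4 and 17 had all 5, and 80 had 2. In Tom- 233 cells had 3 genes, 140 had 4 and 51 had all 5, and 483 had 2.

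Fibroblast markers outside the gate fitted the label. Pdgfra, a receptor that marks fibroblasts, had 621 CPM in Tom+ members and 559.9 CPM in Tom- members, against 393 and 325 CPM in other stromal-gate cells, and had a UMI in 97.7% of Tom+ and in 96.5% of Tom- members. Lum, which encodes the proteoglycan lumican, had 3002 CPM in Tom+ members and 2124 CPM in Tom- members, against 1356 and 822 CPM. Dcn, which encodes decorin, had 30801.8 CPM in Tom+ and 28658.5 CPM in Tom- members, against 20225.1 and 19418.5 CPM. Fibrillar collagen transcripts did not follow this direction. Col1a1 had 1527 CPM in Tom+ and 1779 CPM in Tom- members, against 2338 and 3706 CPM in the others, and Col1a2 and Col3a1 had ratios of 0.97 and 0.89 in Tom+ and of 0.64 and 0.83 in Tom-. Dcn, Col1a1, Col1a2 and Col3a1 entered the gate of all these cells. Of 11 core fibroblast genes measured outside the selecting ones, 4 were at least 2 times higher in both libraries than in other stromal-gate cells, namely Lum, Dpt, Fbln2 and Serpinf1, and 0 were lower; the share of all genes past that threshold is given below.

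Markers of leukocytes, urothelium, smooth muscle and mesothelium summed to lower levels in members than in other stromal-gate cells. The summed level of 25 leukocyte markers was 16.8 CPM in Tom+ members and 65.2 CPM in Tom- members, against 559.7 and 506 CPM in other stromal-gate cells, with 14 of the 25 at 0 in Tom+ and 12 at 0 in Tom- members. The 21 urothelial markers summed to 101 CPM in Tom+ and 295 CPM in Tom- members, against 1202 and 1020.3 CPM. The 14 smooth muscle markers summed to 197 CPM in Tom+ and 227 CPM in Tom- members, against 484 and 741 CPM. The 15 mesothelial markers summed to 2238 CPM in Tom+ and 3863 CPM in Tom- members, of which C3, a complement gene that fibroblasts also express, gave 2054 and 3413 CPM, and the sum was 6247 and 5127 CPM in the others. At least 3 of 6 mesothelial markers were found in 0 of 87 Tom+ members, which allows a share of up to 3.45%, and in 10 of 424 Tom- members, against 148 of 833 and 820 of 5796 other cells. At least 3 of 5 smooth muscle markers were found in 1 Tom+ and 2 Tom- members, against 3 and 188 other cells. Cells with mesothelial markers were thus more frequent in the comparison cells than in members. Ratios are given below also against the 682 Tom+ and 4793 Tom- stromal-gate cells left after removing those with at least 3 mesothelial or smooth muscle markers, a choice made after these values were seen.

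In both libraries 92 genes of 2773 measured were at least 2 times higher in members than in other stromal-gate cells, after adding 1 CPM and leaving out the 5 selecting genes, which is 3.32% of those measured. At least 2 times lower in both libraries were 86 of 2927 genes (2.94%). The higher genes included secreted matrix proteins, growth factors, a chemokine and a redox enzyme. Gpx3, which encodes the extracellular glutathione peroxidase, was at 1387 CPM in Tom+ members and 301 CPM in other Tom+ cells, and at 1418 CPM in Tom- members and 204 CPM in other Tom- cells, ratios of 4.60 and 6.95. It had a UMI in 90.8% of Tom+ and 87.0% of Tom- members and in 40.3% and 48.7% of the others. Cilp, encoding a matrix protein first known from cartilage, was at 146 CPM against 25.8 CPM in Tom+ and at 251 CPM against 13.9 CPM in Tom-, but in only 34.5% and 38.0% of members. Ggt5, a γ-glutamyltransferase that acts on leukotrienes, was at 70.0 CPM against 11.1 CPM in Tom+ and at 73.5 CPM against 6.33 CPM in Tom-. Mmp3, the matrix metalloproteinase stromelysin, had ratios of 11.2 in Tom+ and 8.44 in Tom-, yet it was found in only 11.5% and 16.5% of members. In Tom+ members chosen after thinning its log2 ratio turned to -5.18, and Tom+ cells with 4 of the selecting genes held 0 UMIs of it, so its Tom+ value rests on few cells. Without the 7 shared barcodes Cilp was at 176 CPM and Gpx3 at 1533 CPM in Tom+ members.

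Against the stromal-gate cells without mesothelial or smooth muscle markers, 49 genes were at least 2 times higher and 44 at least 2 times lower in both libraries. Of these, 40 and 21 were shared with the first comparison. The 20 most raised genes had ratios of at least 2 in both libraries in this comparison too. For Gpx3 it was 3.73 in Tom+ and 6.22 in Tom-, for Cilp 3.80 and 13.4, for Ggt5 4.92 and 10.8, for Mmp3 7.76 and 6.21, and for Ackr4, an atypical receptor that clears chemokines, 5.46 and 4.68.

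**Figure D2:**
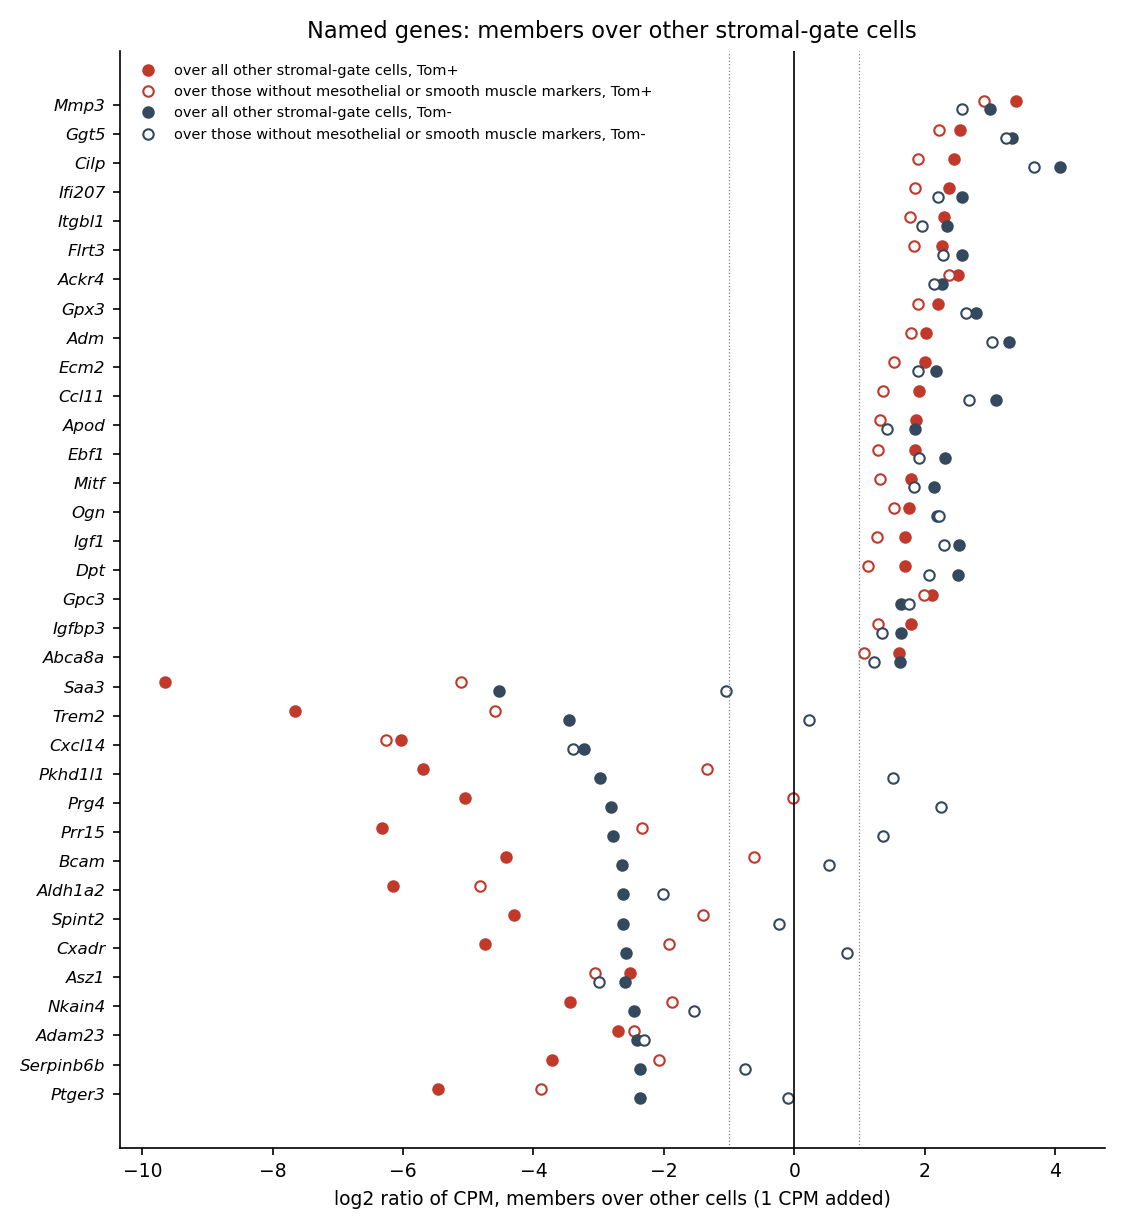
Log2 ratio of CPM (1 CPM added) of Gdf10 Myoc Penk fibroblasts over other stromal-gate cells for the 20 highest and 15 lowest named genes, in Tom+ (red) and Tom- (dark blue-grey), with filled points against all other stromal-gate cells and open points against those without mesothelial or smooth muscle markers. Dotted lines mark a difference of 2 times; the 20 higher genes stay to the right of it in both comparisons, while Trem2, Pkhd1l1, Prg4, Prr15, Bcam and Cxadr cross 0 in Tom- in the narrower comparison.

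Proteoglycan and other non-collagen matrix genes included many of the higher genes. Of 36 such genes measured, 11 were at least 2 times higher in both libraries and 1 was lower, with a median log2 ratio of 0.53 in Tom+ and 0.77 in Tom-, beside -0.05 and -0.06 over all genes measured. Counts for this list and the next ones are against all other stromal-gate cells, including those with mesothelial or smooth muscle markers. They are not given for the narrower set. Ogn, which encodes osteoglycin, had 1186 CPM in Tom+ members and 349.7 CPM in other Tom+ cells, and 1235 CPM in Tom- members and 269 CPM in other Tom- cells. Aspn, encoding asporin, had 81.8 against 29.5 CPM in Tom+ and 104 against 17.8 CPM in Tom-. Nid1, a basement membrane linker, had 647 against 254 CPM in Tom+ and 809 against 223 CPM in Tom-. Tnxb, which encodes tenascin-X, had ratios of 2.39 and 2.40, and Matn2, encoding matrilin-2, 2.36 and 2.56. The 1 lower gene was Spon1, encoding F-spondin, at 28.6 against 65.4 CPM in Tom+ and 46.3 against 198 CPM in Tom-. Dermatopontin, encoded by Dpt, was at 1091 against 336 CPM in Tom+ and 1508 against 263 CPM in Tom-.

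Of 15 collagen genes measured, 1 was higher and 2 were lower. The higher one was Col6a5, at 69.0 against 34.0 CPM in Tom+ and 113 against 22.2 CPM in Tom-. Col12a1 was at 62.1 against 149 CPM in Tom+ and 75.7 against 336 CPM in Tom-, and Col8a1 at 37.5 against 113 CPM in Tom+ and 48.1 against 164 CPM in Tom-. Among 17 metalloproteinase, inhibitor and matrix-processing genes 2 were higher and 0 lower, Mmp3 and the procollagen-processing enhancer gene Pcolce2, at 543 against 262 CPM in Tom+ and 584 against 225 CPM in Tom-.

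Growth factor and chemokine genes differed in both directions. Igf1, encoding insulin-like growth factor, had 247 CPM in Tom+ members and 75.1 CPM in other Tom+ cells, and 304 CPM in Tom- members and 52.1 CPM in other Tom- cells. Vegfd, a lymphatic growth factor gene, had 120.3 against 44.6 CPM in Tom+ and 208 against 37.2 CPM in Tom-. Ccl11, which encodes the eosinophil attractant eotaxin, had 203 against 53.3 CPM in Tom+ and 358 against 41.1 CPM in Tom-. In all, 3 of 8 chemokine and chemokine receptor genes measured were higher, the others being the scavenging receptors Ackr3 and Ackr4, and 4 were lower, namely Cxcl5, Cxcl14, Cxcl16 and Ccl2. Against the cells without mesothelial or smooth muscle markers Cxcl5 and Ccl2 had ratios of 2.33 and 2.20 in Tom-, above 1. Of 9 genes of the insulin-like growth factor list 2 were higher, Igf1 and Igfbp3, which encodes a carrier of that factor, and 0 lower.

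Of 8 Wnt ligand and antagonist genes, 2 were higher and 3 lower. The higher ones encode secreted frizzled-related proteins. Sfrp1 had 665 against 173 CPM in Tom+ and 372 against 162 CPM in Tom-, and Sfrp4 had 101 against 36.1 CPM in Tom+ and 308 against 52.9 CPM in Tom-. The Wnt ligand genes Wnt2 and Wnt4 were lower, Wnt2 at 95.6 against 230.4 CPM in Tom+ and 84.2 against 397 CPM in Tom-, and Wnt4 at 14.8 against 287 CPM in Tom+ and 51.9 against 236 CPM in Tom-. The third, Rspo1, is also a mesothelial marker, and its ratio against cells without such markers was 1.04 in Tom+ and 3.98 in Tom-.

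Few other genes of the selecting genes' pathways passed the threshold, in lists too short to be compared with one another. Over all genes measured, 3.32% were higher and 2.94% lower in both libraries. Of 3 TGF-β and BMP ligand genes measured, 7 receptor and Smad genes and 9 antagonist and target genes, 0 passed the threshold in either direction. Tgfbr3, which encodes betaglycan, a co-receptor of the family, had 267 CPM in Tom+ as in Tom- members, against 181 and 166 CPM in the others. Bmp3, the close relative of Gdf10, had 11.8 CPM in Tom+ and 24.3 CPM in Tom- members, against 47.3 and 70.1 CPM. In the retinoid list 1 of 9 genes was higher and 2 were lower. Aldh1a3, which makes retinoic acid, had 201 CPM in Tom+ and 203 CPM in Tom- members, against 71.7 and 53.9 CPM, while Aldh1a2, which makes the same product, had 0 UMIs in Tom+ members, which allows up to 2.96 CPM, and 12.2 CPM in Tom- members, against 70.5 and 81.0 CPM. The retinol carrier gene Rbp4 had 18.7 CPM in Tom+ and 36.5 CPM in Tom- members, against 68.5 and 192 CPM.

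Of 6 opioid and neuropeptide-processing genes measured, 2 were higher and 0 lower. These were Pcsk5, a proprotein convertase gene, at 58.2 against 28.6 CPM in Tom+ and 75.0 against 32.0 CPM in Tom-, and Anpep, which encodes a peptidase that cleaves enkephalins, at 113 against 45.0 CPM in Tom+ and 134 against 54.8 CPM in Tom-. The neuroendocrine convertase genes that process proenkephalin were barely detected. Pcsk1 had 0 UMIs in Tom+ and 2 UMIs in Tom- members, and Pcsk2 had 1 and 8. No UMI of the opioid receptor genes Oprm1, Oprk1 and Oprd1 was found in members, which allows up to 2.96 CPM in Tom+ and 0.470 CPM in Tom-. In the steroid and sulfation list 0 of 6 measured genes passed. Esr1, the estrogen receptor gene, had 10.8 CPM in Tom+ and 14.3 CPM in Tom- members, against 20.6 and 24.7 CPM.

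Among 20 transcription factor genes measured, 4 were higher and 0 lower. Ebf1, a factor of B cell and fat cell development, had 461 CPM in Tom+ members and 128 CPM in other Tom+ cells, and 499.8 CPM in Tom- members and 99.5 CPM in other Tom- cells. Prrx1, a mesenchymal homeobox gene, had 188 against 66.5 CPM in Tom+ and 246 against 57.3 CPM in Tom-, and Ebf2 and Tshz2 were the others. Of 6 senescence regulators 1 was higher, the cell cycle inhibitor gene Cdkn1c, at 313 against 141 CPM in Tom+ and 281 against 122 CPM in Tom-. Among 23 genes of the senescence-associated secretory list, 3 were higher, Mmp3, Igfbp3 and Fgf2, and 2 lower, Ccl2 and Wnt2. Of 6 genes measured on the p53 target list 0 passed, and of 22 immediate early genes, whose transcripts are known to rise during tissue dissociation, 0 were higher and 1, Ier3, was lower. Genes of 2 other fibroblast states known from several organs were also counted. Of 16 genes of the Col15a1+ resident state 4 were higher and 0 lower, and of 15 genes of the Pi16+ state 1 was higher and 1 lower. The median log2 ratio was 0.60 in Tom+ and 0.74 in Tom- for the resident list, and 0.40 and 0.78 for the Pi16+ list. By their medians the 2 lists thus did not separate alike in both libraries. Over all genes measured, 3.32% were higher and 2.94% lower. Of 6 genes of the suburothelial fibroblast list, the layer under the epithelium, 0 were higher and 4 lower, namely Car3, Cxcl14, Wnt4 and Rbp4.

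Some of the genes that were low in members were also low against the narrower set of cells, and others were not. Cxcl14, which encodes a chemokine, had 2.96 CPM in Tom+ members and 258 CPM in other Tom+ cells, and 114 CPM in Tom- members and 1078 CPM in other Tom- cells. Against cells without mesothelial or smooth muscle markers its ratio was 0.01 in Tom+, where members held 3 UMIs, and 0.09 in Tom-. Adam23, which encodes a catalytically inactive ADAM protein, had 32.5 against 218 CPM in Tom+ and 50.2 against 273 CPM in Tom-, with ratios of 0.18 and 0.20 against the narrower set. Asz1 had 9.86 CPM in Tom+ and 21.6 CPM in Tom- members, against 61.5 and 136 CPM. Of the 10 UMIs of Asz1 in Tom+ members 7 came from the shared barcodes. The acute phase gene Saa3 had 0.986 CPM in Tom+, which is 1 UMI, and 44.2 CPM in Tom- members, against 1602 and 1048 CPM. Against the narrower set its ratio was 0.01 in Tom+ and 0.48 in Tom-. Trem2, a receptor gene best known from macrophages, had 0 UMIs in Tom+ and 17.3 CPM in Tom- members, against 201 and 199 CPM, and a ratio of 1.18 against the narrower set in Tom-.

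Markers of pericytes, Schwann cells and endothelium summed to higher levels in members than in other stromal-gate cells. Most of the pericyte difference came from Abcc9 and most of the Schwann cell difference from Scn7a. Abcc9, a potassium channel subunit gene typical of pericytes, had 92.7 CPM in Tom+ members and 14.4 CPM in other Tom+ cells, and 78.7 CPM in Tom- members and 8.87 CPM in other Tom- cells. Of the 11 pericyte markers 2 were measured and 1 was higher, and the whole list summed to 250.4 CPM in Tom+ and 235 CPM in Tom- members, against 153 and 175 CPM. Apart from Abcc9, the pericyte markers together were not higher in Tom- members. Scn7a, a sodium channel gene on the Schwann cell list, had 235 against 99.3 CPM in Tom+ and 234 against 78.0 CPM in Tom-. That list of 14 summed to 765 CPM in Tom+ and 707 CPM in Tom- members, against 614 and 551 CPM, with 6 of 14 at 0 in Tom+ and 3 at 0 in Tom- members. The 18 endothelial markers summed to 184 CPM in Tom+ members and 201 CPM in Tom- members, against 165 and 148 CPM, with 9 of 18 at 0 in Tom+ members. In 1 Tom- member the endothelial list reached 29855 CPM, beside a median of 121 CPM per Tom- member. The part of such cells in the members was not tested. Epineurial fibroblast genes, of the outer nerve sheath, had 4 of 10 measured genes higher and 0 lower, namely Gpx3, Pcolce2, Sfrp4 and Tnxb. Perineurial genes, of the middle sheath, had 0 of 2 measured genes higher and 1 lower. They summed to 76.9 CPM in Tom+ and 99.7 CPM in Tom- members, against 280 and 276 CPM in the others. Endoneurial genes, of the innermost layer, had 1 of 1 measured gene higher. Whether cells of nerve sheaths were among the members was not tested.

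Levels of several of these genes followed the number of selecting genes detected. In Tom- stromal-gate cells with 0, 1, 2, 3, 4 and 5 of them, Gpx3 was at 198, 136, 477, 1012, 1730.1 and 2319.8 CPM. In Tom+ cells it was at 318, 205, 439, 819, 1672 and 2593 CPM, so both libraries were lowest at 1 gene and highest at 5. Cxcl14 ran the other way, at 1331, 673, 271, 134, 114 and 29.8 CPM in Tom-. Cells with 2 genes, just outside the selection, were also set against members with 3, 4 and 5 genes as separate groups. For 13 of the 20 raised genes in Tom+ and 19 of 20 in Tom-, they lay between cells with 0 genes and the lowest of these groups. For 6 of the 15 lowered genes in Tom+ and 4 in Tom-, they lay between cells with 0 genes and the highest of these groups. Dpt was at 1526 CPM in Tom- cells with 3 genes and at 960.3 CPM in those with 2, but at 840 CPM with 3 and 1078 CPM with 2 in Tom+. The median depth was 14129 UMIs in Tom- cells with 3 genes and 12136 in those with 2, and 10620 UMIs with 3 and 9078 with 2 in Tom+, and its part in these levels was not tested.

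**Figure D3:**
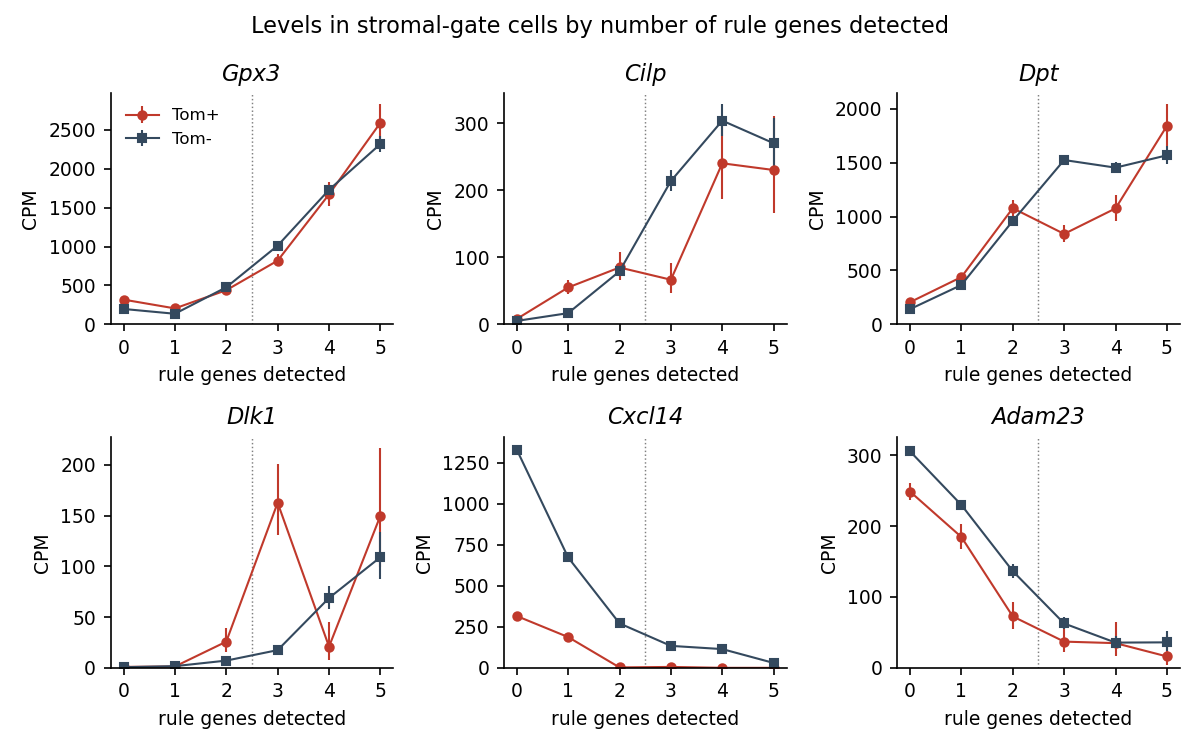
CPM over summed stromal-gate cells of Gpx3, Cilp, Dpt, Dlk1, Cxcl14 and Adam23 by the number of selecting genes detected (0 to 5), in Tom+ (red) and Tom- (dark blue-grey), with exact Poisson 95% intervals, and a dotted line at the limit of the selection. Gpx3 reaches 2593 CPM in Tom+ and 2319.8 CPM in Tom- at 5 genes, Cxcl14 and Adam23 decline, and Dlk1 in Tom+ has no steady order.

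Members were set beside 3 other groups of stromal-gate cells, each chosen by the detection of a few genes. A UMI of both Pi16 and Scara5 was found in 56.3% of Tom+ members and 72.2% of Tom- members, of both Dner and Kcnn3 in 8.05% and 2.36%, and of at least 2 of Dpp4, Sema3e and Smpd3 in 5.75% and 21.7%. In other stromal-gate cells the share with Pi16 and Scara5 was 54.4% in Tom+ and 61.1% in Tom-, that with Dner and Kcnn3 10.7% and 2.95%, and that with at least 2 of the last 3 genes 13.2% and 14.9%. The detection of Pi16 and Scara5 in members was thus near that in the other cells. The Dpp4, Sema3e and Smpd3 group had 4716 CPM of Saa3 in Tom+ and 3549 CPM in Tom-, and 483 and 703 CPM of Prg4. In the Pi16 and Scara5 group Saa3 was at 174 and 171 CPM and Prg4 at 28.9 and 33.2 CPM. Col1a1 was at 624 and 848 CPM in the former group and at 2135 and 3134 CPM in the latter. The part of mesothelial cells in these groups was not tested. The non-member cells of these groups are part of the comparison cells against which the 20 raised genes were chosen. Lower levels in them follow largely from that choice, so the counts and levels below are a description. Of the 20 raised genes, 20 were lower than in members in both libraries in the non-member cells with Pi16 and Scara5, 20 in those with at least 2 of Dpp4, Sema3e and Smpd3, and 18 in those with Dner and Kcnn3. The exceptions were Abca8a, a lipid transporter gene, at 244 CPM in Tom+ members and 199 CPM in Tom- members, against 289.99 and 289 CPM in the Dner and Kcnn3 cells, and Itgbl1, at 82.2 CPM in Tom- members against 89.7 CPM. Cells with Pi16 and Scara5 had 156 CPM of Gpx3 in the Tom+ library and 129 CPM in the Tom- library. The level was 227 and 209.8 CPM in those with Dner and Kcnn3, and at 86.6 and 123 CPM in the Dpp4, Sema3e and Smpd3 group, all below the 1387 and 1418 CPM of Tom+ and Tom- members. Apod, a lipocalin gene, was at 550.1 CPM in Tom+ members and 589 CPM in Tom- members, close to the 522 and 511 CPM of the Dner and Kcnn3 cells and above the 255 and 204 CPM of the Pi16 and Scara5 cells. Cxcl12, the stromal chemokine, was at 648 CPM in Tom+ members and 461 CPM in Tom- members, below the 1911 and 1340.1 CPM of the Dner and Kcnn3 cells.

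The members were themselves uneven. The most frequent combination in Tom+ was Gdf10, Myoc and Penk in 17 cells (19.5%), level with all 5 genes in another 17, and in Tom- it was Gdf10, Sult1e1 and Penk in 95 cells (22.4%). That Tom- combination made up 6.90% of Tom+ members. Myoc, Penk and Cyp26b1 was held by 11.5% of Tom+ and 2.83% of Tom- members. The detection of Myoc and of Sult1e1 was used to split the members, a choice made after their levels were seen.

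Members with a Myoc UMI, 73 in Tom+ and 265 in Tom-, differed from the 14 and 159 without one in the same direction in both libraries for a set of genes. The rule asks members without Myoc for at least 3 of the other 4 genes. Only 1 of these 14 Tom+ and 21 of these 159 Tom- members therefore lacked a Sult1e1 UMI. The splits by Myoc and by Sult1e1 thus overlap through the selection, and their parts cannot be told apart. Cilp was at 174 CPM with and 41.4 CPM without Myoc in Tom+, and at 346 CPM with and 111 CPM without in Tom-. Dlk1, which encodes a non-canonical Notch ligand that restrains fat cell formation, was at 153 CPM with Myoc in Tom+ and had 0 UMIs without it, which allows up to 13.8 CPM, and it was at 70.2 CPM with and 10.9 CPM without in Tom-. It was found in only 9.20% of Tom+ and 5.42% of Tom- members. Fmod, encoding fibromodulin, was at 72.8 CPM with and 9.20 CPM without Myoc in Tom+ and at 39.4 CPM with and 7.77 CPM without in Tom-. The reverse held for Ccl11, at 112 CPM with and 538 CPM without Myoc in Tom+ and at 225 CPM with and 554 CPM without in Tom-. Dpp4, a cell surface dipeptidase gene, was at 64.0 CPM with and 258 CPM without in Tom+ and at 93.1 CPM with and 219 CPM without in Tom-, and Vegfd at 65.2 CPM with and 322 CPM without in Tom+ and at 154 CPM with and 289 CPM without in Tom-. The median depth was 10071 UMIs with and 16064 without Myoc in Tom+, and 13566 with and 15968 without in Tom-. Of the 7 shared barcodes 4 held Myoc. Without them, 69 Tom+ members with Myoc and 11 without had median depths of 9882 and 9745 UMIs. Ccl11 was then at 101 CPM with and 477 CPM without, Vegfd at 65.1 CPM with and 301 CPM without, Dpp4 at 60.8 CPM with and 184 CPM without, and Cilp at 199.7 CPM with and 58.7 CPM without.

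**Figure D4:**
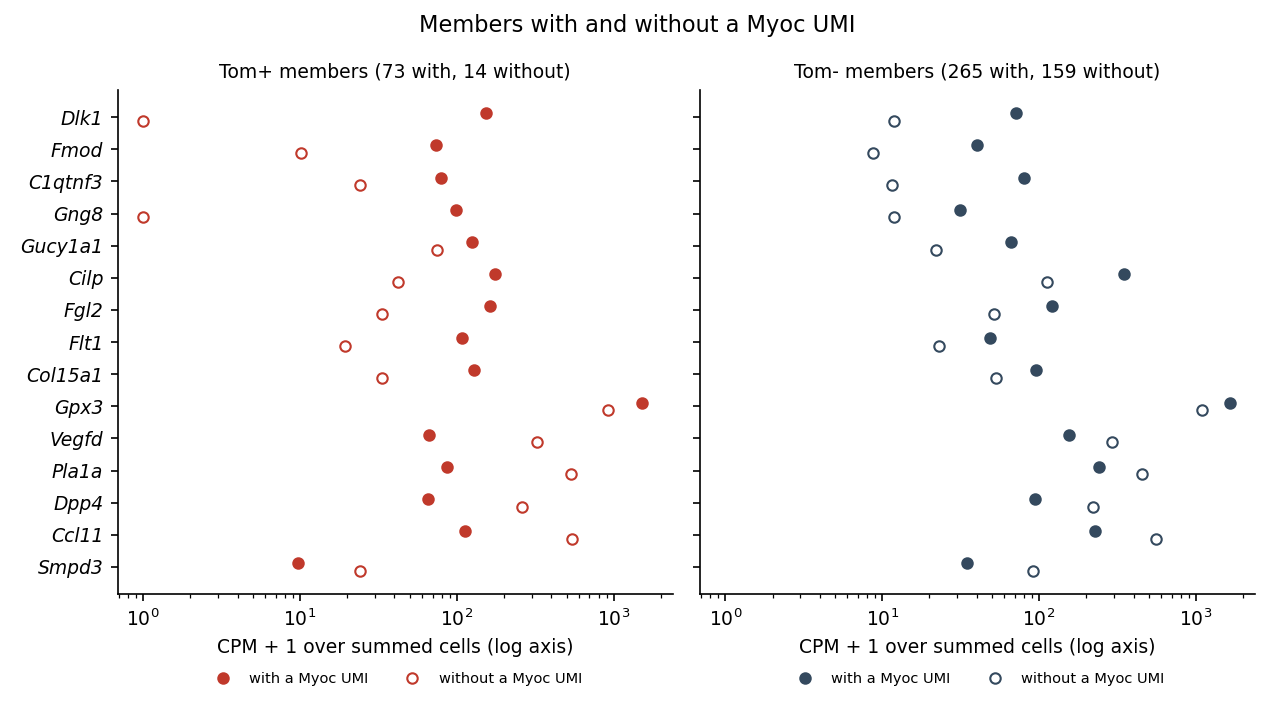
CPM plus 1 (log axis, over summed cells) of 15 genes in Gdf10 Myoc Penk fibroblasts with a Myoc UMI (filled) and without one (open), for 73 and 14 Tom+ cells on the left and 265 and 159 Tom- cells on the right. The first 10 genes are higher with Myoc and the last 5 higher without it, in both libraries, as in Cilp at 346 CPM with and 111 CPM without Myoc in Tom-; without the shared barcodes Smpd3 was at 8.68 CPM with and 7.34 CPM without Myoc in Tom+.

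Not all genes split alike in both libraries. Apod was at 465 CPM with and 860.4 CPM without Myoc in Tom+ but at 783 CPM with and 301 CPM without in Tom-. Splitting by a Sult1e1 UMI gave 48 and 39 Tom+ and 293 and 131 Tom- members. Because of the overlap with the Myoc split, its values are no separate support for that split. Ccl11 was at 297 CPM with and 71.2 CPM without Sult1e1 in Tom+ and at 419 CPM with and 205 CPM without in Tom-. Npy1r, a receptor gene for neuropeptide Y, ran the other way, at 65.7 CPM with and 216 CPM without in Tom+ and at 91.9 CPM with and 227 CPM without in Tom-. Sfrp2 changed direction between the libraries, at 177 CPM with and 7.12 CPM without Sult1e1 in Tom+ and at 201 CPM with and 349 CPM without in Tom-. Of the 108 UMIs of Sfrp2 in Tom+ members, 1 cell gave 41.7%.

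Members made up a larger share of the stromal gate in the Tom+ library. They were 87 of 920 Tom+ cells, 9.46% (7.64% to 11.5%), and 424 of 6220 Tom- cells, 6.82% (6.20% to 7.47%), a ratio of 1.39 (1.09 to 1.75). Seen from the other side, 17.0% (13.9% to 20.6%) of members were Tom+, and 12.6% (11.8% to 13.4%) of other stromal-gate cells. The share also moved with depth, at 5.80% in Tom+ and 3.94% in Tom- cells of 1000 to 5000 UMIs, and at 11.2% in Tom+ and 7.25% in Tom- cells of 10000 to 20000 UMIs. In cells above 20000 UMIs it was 7.14% in Tom+ and 8.86% in Tom-, the other way round. With all cells thinned to 2000 UMIs before selection the ratio was 1.75, from 32 Tom+ and 125 Tom- members. The sort set how many cells of each library entered, so the shares do not give the share of recombined cells in the tissue.

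The reporter followed the sort. tdTomato was found in 87 of 87 Tom+ members at 1906.5 CPM and in 81 of 424 Tom- members at 18.8 CPM, and other Tom- stromal-gate cells had 18.7 CPM. Tom- urothelial cells, at a median of 38398 UMIs, had 43.1 CPM, with a UMI in 70.1% of cells. Cdkn2a, the p16 gene, had 23 UMIs in 4 of 87 Tom+ members and 24 UMIs in 9 of 424 Tom- members, which is 22.7 and 3.76 CPM. Of the 23 UMIs in Tom+ members 20 came from cells with a shared barcode, and without those the level was 3.63 CPM in Tom+, against 3.76 CPM in Tom-, a ratio of 0.96 (0.19 to 3.17). The higher Cdkn2a level of Tom+ members thus rested on the 7 shared barcodes. Cdkn1a, encoding the inhibitor p21, had 68.0 CPM in Tom+ and 89.1 CPM in Tom- members, and 73.7 CPM in Tom+ members without the shared barcodes. Cxcl12 had 648 CPM in Tom+ and 461 CPM in Tom- members, a ratio of 1.40 (1.29 to 1.53), and in other stromal-gate cells the Tom+ level was 424 CPM and the Tom- level 255 CPM, a ratio of 1.67.

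Between Tom+ and Tom- members 80 of 3243 genes measured, 2.47%, were at least 1.5 times higher in Tom+, and 94 (2.9%) were at least 1.5 times lower, after adding 1 CPM. Without the 7 shared barcodes the counts were 121 and 141. Of the selecting genes Myoc and Cyp26b1 were among the higher, with ratios of 1.80 (1.67 to 1.94) and 1.79 (1.49 to 2.12), and Sult1e1 was among the lower, with 0.58 (0.51 to 0.65). Gdf10, at 0.98 (0.89 to 1.08), and Penk, at 0.93 (0.83 to 1.04), had intervals that include 1. Without the shared barcodes Myoc had a ratio of 2.14, Cyp26b1 2.15 and Sult1e1 0.54.

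Among the genes higher in Tom+ members, Gng8, a G protein γ subunit gene, had 76.9 CPM in Tom+ and 22.4 CPM in Tom- members, a ratio of 3.43 (2.57 to 4.55), and was found in 33 of 87 and 92 of 424 cells. Gucy1a1, which encodes part of the guanylyl cyclase that senses nitric oxide, had 113 CPM in Tom+ and 47.5 CPM in Tom- members, a ratio of 2.39 (1.91 to 2.97). F3, which encodes tissue factor, the cell surface starter of coagulation, had 375 CPM in Tom+ and 179 CPM in Tom- members, a ratio of 2.09 (1.86 to 2.35), and it was at a ratio of 1.01 in other stromal-gate cells. In other stromal-gate cells the ratio was 1.99 for Gucy1a1, 2.00 for Sgcd and 1.56 for Gng8, so for these 3 genes the libraries differed there by over 1.5 times as well. Fmod had 59.1 CPM in Tom+ and 26.7 CPM in Tom- members, and Sgcd, encoding δ-sarcoglycan, had 71.0 and 22.0 CPM. Without the shared barcodes the ratio was 4.204 for Gng8, 2.90 for Gucy1a1, 2.28 for F3 and 2.72 for Fmod.

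Among the genes lower in Tom+ members, Edn1, encoding the vasoconstrictor endothelin, had 4.93 CPM in Tom+ members, from 5 UMIs in 2 cells, and 51.4 CPM in Tom- members, a ratio of 0.10 (0.03 to 0.23). Ace, the angiotensin-converting enzyme gene, had 32.5 CPM in Tom+ and 106 CPM in Tom- members, a ratio of 0.31 (0.21 to 0.44), and 0.18 without the shared barcodes. It had a UMI in 17 of 87 Tom+ and 208 of 424 Tom- members. Sfrp4 had 101 CPM in Tom+ and 308 CPM in Tom- members, Sfrp2 106 and 243 CPM, and Wnt4 14.8 and 51.9 CPM. Without the shared barcodes Sfrp4 was at 81.0 CPM in Tom+ members. In other stromal-gate cells the ratio was 0.47 for Edn1, 0.68 for Sfrp4 and 0.64 for Sfrp2, in the same direction. It was 1.45 for Ace and 1.22 for Wnt4 there, in the other direction. In members chosen after thinning Sfrp2 turned to a log2 ratio of 1.54. Of 7 Wnt ligand and antagonist genes measured, Sfrp2, Sfrp4 and Wnt4 were lower and 1, Sfrp1, was higher. Sfrp1 was at 665 CPM in Tom+ members and 372 CPM in Tom- members, and the median log2 ratio of the list was 0.18. Postn, which encodes periostin, had 93.7 CPM in Tom+ and 239 CPM in Tom- members, a ratio of 0.39 (0.31 to 0.48), beside 0.94 in other stromal-gate cells. Hp, the haptoglobin gene, had 22.7 CPM in Tom+ and 79.0 CPM in Tom- members, and 21 of its 23 Tom+ UMIs came from the shared barcodes.

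**Figure D5:**
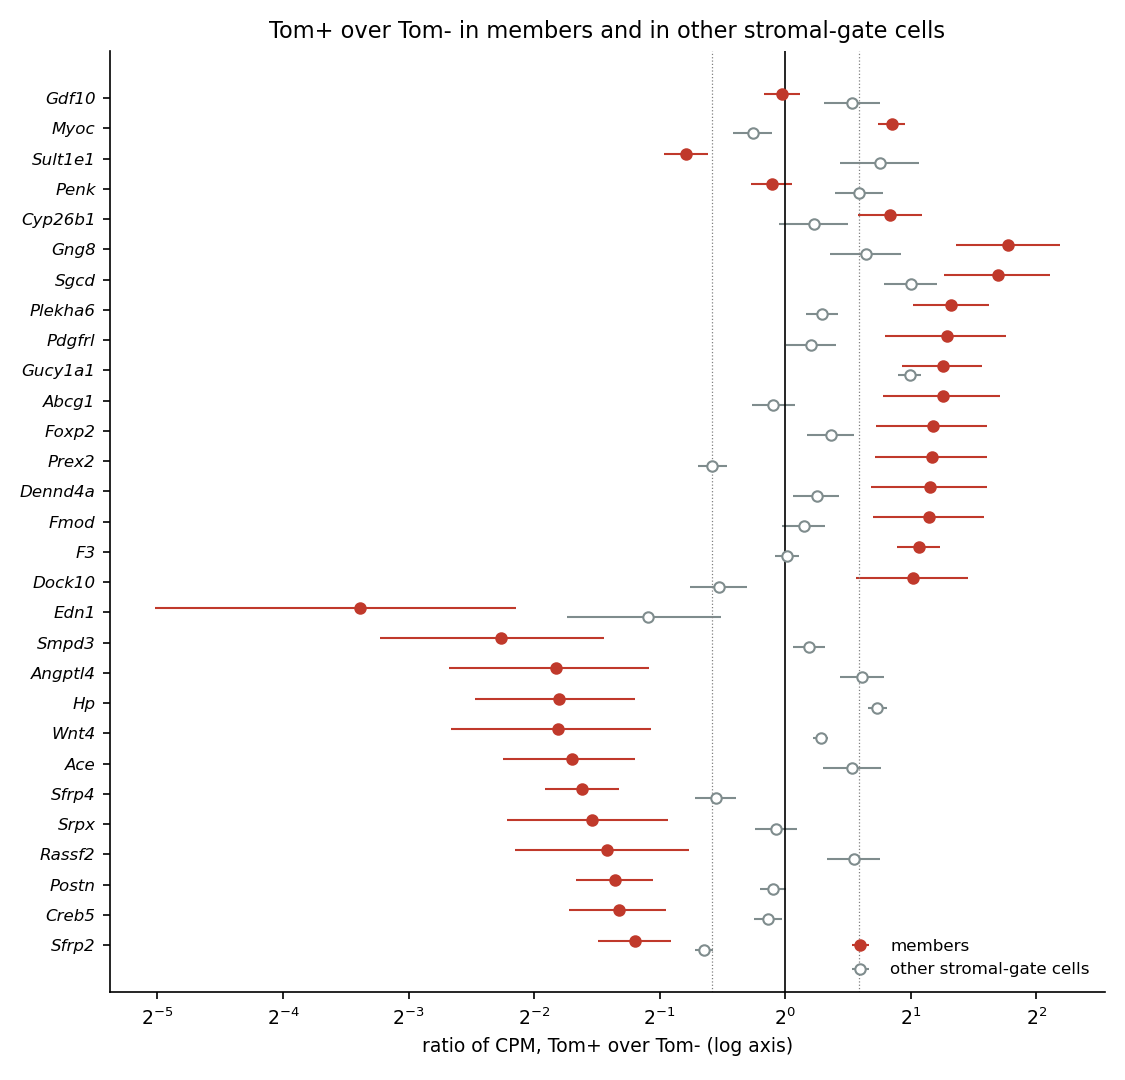
Ratio of CPM, Tom+ over Tom- (log axis, bars are exact 95% intervals for counting error), for the 5 selecting genes and the 12 highest and 12 lowest named genes, in Gdf10 Myoc Penk fibroblasts (red) and in other stromal-gate cells (open grey). Dotted lines mark 1.5 times higher and lower; Gng8 is highest at 3.43 and Edn1 lowest at 0.10 in members, and F3 and Postn lie near 1 in other stromal-gate cells.

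Chemokine, secretory and complement genes past the threshold were mostly lower in Tom+ members. Of 7 chemokine genes 0 were higher and 4 were lower in Tom+ members, with a median log2 ratio of -0.81, beside 0.01 over all genes measured. These were Ccl11, at 203 CPM in Tom+ members and 358 CPM in Tom- members, Cxcl16, at 29.6 and 54.6 CPM, and Cxcl13 and Cxcl14, with 1 and 3 UMIs in Tom+ and with 80.1 and 114 CPM in Tom- members. In other stromal-gate cells Cxcl14 was lower in Tom+ as well, at 258 CPM against 1078 CPM in Tom-. Cxcl13 ran the other way there, with a log2 ratio of 2.02. Of 24 genes on the secretory list 1 was higher, Igfbp3, and 5 were lower, namely C3, Igfbp5, Vegfa, Angptl4 and Edn1, with a median of -0.22. Igfbp5, an insulin-like growth factor binding protein gene, had 286 CPM in Tom+ and 579 CPM in Tom- members, from 13 of 87 and 194 of 424 cells. Of its 290 Tom+ UMIs 185 came from shared barcodes, and the level without them was 127 CPM. The complement genes C3, at 2054 CPM in Tom+ members and 3413 CPM in Tom- members, and C4b, at 259 and 521 CPM, were the 2 lower of 9 on their list, with 0 higher. Without the shared barcodes Tom+ members had 195 CPM of C4b and 163 CPM of Ccl11.

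Of 36 matrix genes 4 were higher, namely Fmod, Podn, Smoc2 and Matn2, and 3 were lower, namely Postn, Ctgf and Vit. Matn2 had 929.6 CPM in Tom+ and 517 CPM in Tom- members, a ratio of 1.80, beside 1.95 in other stromal-gate cells. Of 13 collagen genes 0 were higher and 1, Col6a5, was lower. Among 10 genes of the CD142+ regulatory fibroblast list, known from adipose tissue, 3 were higher, F3, Fmo2 and Abcg1, and 1, Vit, was lower. In the TGF-β and BMP lists Smad7, an inhibitory Smad gene, had 67.0 CPM in Tom+ and 43.0 CPM in Tom- members, Id2 had 525 and 335 CPM, and Tgfb2 had 75.9 and 116 CPM. Smad7 was the 1 higher of 10 receptor and Smad genes, Tgfb2 the 1 lower of 3 ligand genes, and of 10 antagonist and target genes 1, Id2, was higher and 2, Fst and Ltbp1, were lower. Fst turned to a log2 ratio of 0.061 in members with at least 4 selecting genes and to 0.22 after thinning. The retinoid list had 0 of 7, the opioid list 0 of 6 and the p53 target list 0 of 6 genes past 1.5 times in either direction, and the steroid list had 1 of 6, Papss2, which supplies the sulfate donor for sulfotransferases, at 64.1 CPM in Tom+ members and 39.0 CPM in Tom- members. Senescence regulators had 0 of 6, with a median of 0.16. Over all genes measured, 2.47% were higher and 2.9% lower in Tom+ members. Beside that share, a count of 0 in lists this short does not show an absence of change.

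Several marker lists of other cell types summed to lower levels in Tom+ members. The mesothelial markers summed to 2238 CPM in Tom+ members and 3863 CPM in Tom- members, with 3 of 5 measured lower and a median log2 ratio of -0.73. C3, a complement gene that fibroblasts also express and that was itself lower in Tom+ members, gave most of both sums. The urothelial sums were 101 CPM in Tom+ members and 295 CPM in Tom- members, with Krt19 the 1 measured and lower, and the leukocyte sums 16.8 and 65.2 CPM. Haemoglobin and other erythroid markers summed to 56.2 CPM in Tom+ and 429 CPM in Tom- members, against 54.2 and 5283 CPM in other stromal-gate cells, and 3 of the 3 measured were lower in Tom+. Adipocyte markers summed to 4.93 CPM in Tom+ and 82.3 CPM in Tom- members, and Car3, the 1 measured, had 0 UMIs in Tom+ and 72.6 CPM in Tom- members. Car3, which gave most of the Tom- sum, is also on the suburothelial fibroblast list, and Adipoq had 0 UMIs in members of both libraries. Of 22 immediate early genes 0 were higher and 1, Cebpd, was lower, at 428 CPM in Tom+ members and 724 CPM in Tom- members. The part of free RNA, of depth and of these markers in the differences was not tested.

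Since Tom+ and Tom- members differed in Myoc and Sult1e1, the ratios were also taken within members that held either gene. Among the 73 Tom+ and 265 Tom- members with Myoc, F3 had a Tom+ over Tom- ratio of 1.84, Gng8 3.24, Postn 0.41, Ace 0.30 and Ccl11 0.50. Among the 48 Tom+ and 293 Tom- members with Sult1e1, F3 had 2.28, Gng8 2.62, Postn 0.35, Ace 0.35 and Ccl11 0.71. All 5 genes kept their direction in both subsets. Cxcl12 had 1.47 in members with Myoc and 1.02 in members with Sult1e1, and Sfrp2 had 0.40 and 0.88, so these 2 ratios depended on which members were compared.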

How the data were processed

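The deposited values were unnormalized UMI counts, with at least 500 UMIs per barcode, in 1 matrix for each library. Cell Ranger 7.0.0 and build mm10 were used per the submitters' processing notes, and the matrix headers carry version 3.0.2. The step that chose barcodes as cells is not given in the sources used here. Coordinates are from GRCm38. UMIs were summed per group and scaled to CPM in Python 3.11.15 (numpy 2.4.6, scipy 1.17.1, pandas 2.3.3), with no count model. Sums have Poisson, shares Clopper-Pearson and ratios conditional binomial exact 95% intervals. Genes entered at 50 CPM on the higher side (in each library, for members against other cells) and, between libraries, with 20 UMIs in all. Named genes were the 20 highest and 15 lowest (members against others) or 12 highest and 12 lowest (Tom+ against Tom-) by ratio among those found in at least 10% of the cells of the higher side. Between libraries they also needed 50 UMIs and no cell with over 25% of them. Markers of other cell types and genes under 5% of their level in another cell type were left out. The selecting and gate genes, tdTomato, Cdkn2a, Cdkn1a and Cxcl12 were always named, and any gene of a list could be. Scrublet ran in scanpy 1.11.5 and TMM in edgeR 4.0.16 under R 4.3.3. The ratios and intervals were tested on simulated data. Members, gene lists and splits were chosen with earlier results of these data known. Alternatives changed the selection, cell filter, shared barcodes, doublets, gate, scaling, cell weights, pseudocount and filter.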

Additional observations from a re-analysis of the deposited data

Results flagged for a closer look

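For 7 genes the Tom+ and Tom- levels differed by at least 1.5 times in opposite directions in Gdf10 Myoc Penk fibroblasts and in the other stromal-gate cells, which is what drew attention to them. Each group is 1 library, and the difference between the 2 directions was not tested. Values are log2 ratios of Tom+ over Tom- with 1 CPM added. Angptl4, a secreted lipase inhibitor, had -1.76 in members and 0.59 in other stromal-gate cells. Hp had -1.76 in members and 0.73 in the others, and in members 21 of its 23 Tom+ UMIs came from barcodes found in both libraries. Sult1e1 had -0.79 in members and 0.67 in the others, but it is a selecting gene whose detection set both groups, so its values are a description only. Cilp had -0.78 and 0.84, and Tgfb2 had -0.61 and 0.66. Cxcl13, a B cell attracting chemokine, had -5.35 in members, where Tom+ held 1 UMI, and 2.02 in the others. Col6a5 had -0.71 in members and 0.59 in the others, and 1 Tom+ member gave 37.1% of its UMIs.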

How the results depend on the processing

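The share ratio of 1.39 lay between 1.24 and 1.49 with 2 or 4 selecting genes, the stricter filter, no shared barcodes, no doublets, the higher gate or no mesothelial or smooth muscle markers. It was 1.75 after thinning, 1.84 counting only members with a Myoc UMI and 1.13 counting only those with a Sult1e1 UMI. The counts of genes between Tom+ and Tom- members depended on the selection and the filter. For at least 1.5 times higher and lower they were 44 and 55 with at least 2 selecting genes, 199 and 183 with at least 4, and 369 and 330 after thinning. They were 568 and 585 with a filter of 10 CPM, 1803 and 2145 without a filter and 14 and 20 with a filter of 200 CPM. They were 121 and 141 without shared barcodes, 138 and 123 as a mean over cells and 150 and 126 in members with Sult1e1. The counts against other stromal-gate cells were 49 higher and 44 lower without mesothelial or smooth muscle markers, 176 and 286 with a filter of 10 CPM, and 248 and 604 without one. TMM scaling gave 70 and 109 in place of 80 and 94.

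Of the single-gene log2 ratios between Tom+ and Tom- members, 689 alternative values stayed near the main one, 166 moved in size and 9 changed sign. With at least 4 selecting genes Fst was at 0.061 and Dlk1 at -0.15. After thinning, Dennd4a was at -0.48, Sfrp2 at 1.54, Fst at 0.22, Col6a5 at 0.37 and Flt1 at -0.16. Without shared barcodes Cdkn2a was at -0.042, and as a mean over cells Col6a5 was at 0.010. Against other stromal-gate cells 442 stayed near, 251 moved and 7 changed sign. Mmp3 in Tom+ was at -5.18 after thinning. In Tom-, against cells without mesothelial or smooth muscle markers, Trem2 was at 0.23, Pkhd1l1 at 1.52, Prg4 at 2.26, Prr15 at 1.37, Bcam at 0.53 and Cxadr at 0.80. Fewer cells after thinning (32 Tom+ and 125 Tom- members) leave fewer counts per gene. The cause of the other changes was not tested. No paired analysis was possible because there is 1 library per group. Tom+ members held 1014420 UMIs in all, which limits comparisons of genes under 50 CPM.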
